A study of Mus musculus with 12 samples.

Results

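Primary mouse oligodendrocyte precursor cells (OPCs) treated with an EZH2 inhibitor (EZH2i) and then also with IFN-γ were compared with OPCs that received neither. The comparison used 6 of the 12 bulk RNA-seq libraries of the experiment, chosen by their labels alone: 3 IFN-γ with EZH2i libraries (1.5 μM inhibitor, condition IFNg) and 3 Ctr libraries (0 μM inhibitor, condition Ctr). The inhibitor was EPZ011989, given for 4 days, and IFN-γ was added at 100 ng/ml for the last 6 h together with fresh inhibitor. The other 6 libraries, 3 with EZH2i alone and 3 with IFN-γ alone, entered the same statistical fit and are used where a change had to be set beside each agent by itself. All 4 groups consisted of cells labelled Sox10GFP+ OPCs, from pups of age P4-P6. The mouse line carries Sox10:Cre and RCE:LoxP(EGFP), so that Cre driven by Sox10 marks the oligodendrocyte lineage with EGFP. Brains of several pups were pooled for a culture, replicates came from different litters, and all cells were grown with PDGFaa and bFGF, growth factors that keep OPCs dividing. The labels name EAE, the mouse model of multiple sclerosis, for every library, whereas the study's methods describe no immunization of these pups. What the Ctr cells received in place of the inhibitor was not given in the sources used here.

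IFN-γ is a cytokine of T cells and NK cells. Its receptor activates the kinases JAK1 and JAK2, and the signal reaches GAS elements that switch on, among others, the transcription factor IRF1. IRF factors act through ISRE elements on genes of cell-autonomous defence and antigen presentation. EZH2 is the catalytic subunit of Polycomb repressive complex PRC2. It methylates lysine 27 of histone H3 (H3K27me3), a mark found on silent developmental regulators such as the Hox genes, many of which have CpG-rich promoters. OPCs divide, express Pdgfra and Cspg4, and give rise to the myelinating oligodendrocytes of the central nervous system.

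Estimated counts summed over genes gave totals of 29671054, 17403896 and 56969347 for Ctr replicates 1 to 3 and 24820529, 33177928 and 42555540 for IFN-γ with EZH2i replicates 1 to 3. The lowest library of the experiment was Ctr replicate 2 and the highest, 3.82 times deeper, held 66546017. Mitochondrial genes took 1.518% to 3.932% of the counts over the 12 libraries. The first principal component held 56.9% of the variance and parted the 6 libraries with IFN-γ from the 6 without, the second (17.4%) separated the replicate numbers within groups, and the third (9.3%) parted the libraries with EZH2i from those without. Levels are given as CPM, the counts scaled to library size with TMM factors, in the order of replicates 1 to 3, and changes as fitted log2 fold changes with their SE. The adjusted p-values are those of edgeR's quasi-likelihood test with the Benjamini-Hochberg correction over 18995 tested genes.

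In IFN-γ with EZH2i compared with Ctr, 1673 genes rose (8.81% of those tested) and 669 fell (3.52%). The median of the fitted log2 fold changes over all tested genes was 0.00. Rises were larger than falls. The median absolute log2 fold change was 1.80 among the genes that rose and 0.86 among those that fell, 1224 of the former and 268 of the latter changed by at least 2-fold, and 476 and 5 by at least 8-fold. In 1668 of the 1673 and 668 of the 669 the values of both groups did not overlap. Together the genes that rose took 4.00% ± 0.13 (SD, n = 3) of all counts in Ctr and 12.3% ± 0.6 in IFN-γ with EZH2i, and the genes that fell took 5.23% ± 0.21 and 2.82% ± 0.16. These shares and the lack of overlap describe genes chosen on the same libraries, so neither adds support to the calls. The share without overlap among all tested genes was not computed.

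**Figure D1:**
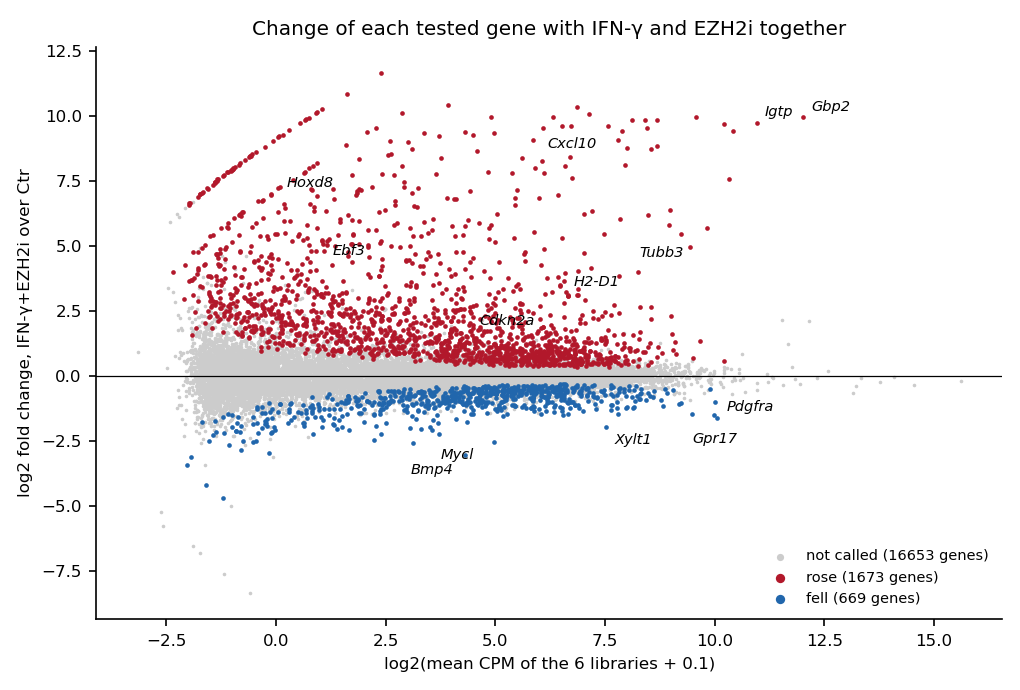
Each point is a tested gene, with log2 of its mean level over the 6 libraries in CPM plus 0.1 on the x axis and its fitted log2 fold change in IFN-γ with EZH2i versus Ctr on the y axis. The 1673 genes that rose extend to far larger changes than the 669 that fell, of which 5 changed by at least 8-fold.

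Most genes of the IFN-γ receptor pathway and of the IRF factors rose. Of 12 receptor and JAK-STAT genes, 8 rose and none fell, with a median log2 fold change of 1.41, and of 9 IRF factors 5 rose and none fell, with a median of 2.88. Irf1, a transcription factor induced early by IFN-γ, went from 12.3, 11.5 and 12.1 CPM to 850.1, 1113 and 1016 CPM, a log2 fold change of 6.37 ± 0.16 (SE, adjusted p = 2.32e-10). Irf8, an IRF best known from myeloid cells, measured 1.99, 1.64 and 1.76 CPM in Ctr and 526, 512 and 442 CPM with both agents, a log2 fold change of 8.09 ± 0.25 (SE, adjusted p = 7.72e-10). The ranges of both groups were far apart for Irf1 and Irf8. Stat2 (log2 fold change 3.65 ± 0.14) and Irf9 (log2 fold change 3.74 ± 0.15), partners in the ISGF3 complex, rose together. Socs1, an inhibitor of JAK kinases that closes the feedback loop, rose as well, from 1.14, 1.35 and 0.95 CPM to 155, 114 and 108 CPM, a log2 fold change of 6.82 ± 0.29 (SE, adjusted p = 1.03e-08). The kinase genes moved less, and Jak2 had a log2 fold change of 1.22 with no overlap between 65.2, 63.2 and 71.7 CPM in Ctr and 126, 149 and 189.6 CPM with both agents. An annotated gene shares exon sequence with Irf1, and since the strand setting of the quantification was not given in the sources used here, reads of the pair may not have been separated.

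The start regions of Irf1 and Socs1, of the effector gene Gbp2 and of the chemokine gene Cxcl10 are shown because they hold the elements named above. They are RefSeq windows of 300 bases (GRCm38.p6), from 250 bases before to 50 after the start, 5′ to 3′ on the gene's strand, and each spans promoter and the beginning of exon 1. Capitals mark matches to GAS (TTCNNNGAA) in Irf1 and to ISRE (GAAA, any 2 bases, then GAAA, on either strand) in the other 3.
Irf1, chr11:53769764-53770063, plus strand, GAS 90 bases before the start: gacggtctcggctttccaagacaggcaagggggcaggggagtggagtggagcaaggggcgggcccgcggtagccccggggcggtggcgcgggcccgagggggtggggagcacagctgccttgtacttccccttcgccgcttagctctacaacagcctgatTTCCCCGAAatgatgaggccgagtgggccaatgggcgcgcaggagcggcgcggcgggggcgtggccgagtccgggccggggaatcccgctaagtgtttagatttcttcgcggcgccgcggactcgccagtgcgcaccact
Gbp2, chr3:142620413-142620712, plus strand, ISRE 59 bases before the start: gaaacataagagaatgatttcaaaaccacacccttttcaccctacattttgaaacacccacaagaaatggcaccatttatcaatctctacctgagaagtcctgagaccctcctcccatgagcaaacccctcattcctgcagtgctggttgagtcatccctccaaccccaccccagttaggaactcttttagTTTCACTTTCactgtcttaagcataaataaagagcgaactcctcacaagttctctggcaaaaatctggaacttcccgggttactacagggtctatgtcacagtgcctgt
Cxcl10, chr5:92348840-92349139, minus strand, ISRE 213 bases before the start: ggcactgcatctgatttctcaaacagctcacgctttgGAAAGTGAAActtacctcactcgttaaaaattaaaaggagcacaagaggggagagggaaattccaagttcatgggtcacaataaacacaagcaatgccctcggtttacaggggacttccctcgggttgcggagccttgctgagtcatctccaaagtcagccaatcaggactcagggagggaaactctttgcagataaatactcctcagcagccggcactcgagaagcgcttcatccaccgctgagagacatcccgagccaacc
Socs1, chr16:10785487-10785786, minus strand, overlapping ISRE matches 83 and 77 bases before the start: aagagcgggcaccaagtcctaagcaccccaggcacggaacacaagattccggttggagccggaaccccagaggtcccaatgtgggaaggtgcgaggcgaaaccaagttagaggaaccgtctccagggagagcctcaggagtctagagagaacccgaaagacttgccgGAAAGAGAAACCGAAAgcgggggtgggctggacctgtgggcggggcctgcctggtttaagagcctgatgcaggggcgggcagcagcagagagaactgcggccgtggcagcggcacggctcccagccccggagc
In such windows of 20594 RefSeq promoters an ISRE match was found in 3.4% and a GAS match in 8.1%. Of the genes that rose, 1171 had a window, of which 9.6% held an ISRE match and 9.6% a GAS match. Among the 478 windows of genes that fell the shares were 1.3% and 4.4%, and among the 11959 windows of all tested genes 3.0% and 6.7%. All 5 windows of the GBP family and 6 of 7 of the IRG family held an ISRE match, compared with none of 10 windows of MHC-II genes. A match describes letters in this window and not a bound site.

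By list median, the IRG and GBP lists had the highest fitted changes of all lists. They hold interferon-induced GTPases, which attack the membranes around intracellular pathogens. All 10 tested members of the GBP family (11 listed) and all 10 tested members of the IRG family (11 listed) rose, with median log2 fold changes of 8.87 (8.32 where the bound replaced the fitted value of a gene at the counting floor) and 9.71. The 22 listed genes together went from 0.00648% ± 0.0011 (SD, n = 3) of all counts in Ctr to 2.56% ± 0.36 in IFN-γ with EZH2i. Gbp2 rose from 7.91, 9.94 and 7.45 CPM to 7695, 8614 and 8506 CPM, a log2 fold change of 9.94 ± 0.21 (SE, adjusted p = 1.83e-10). Per length it reached 2493 ± 220.4 TPM, the length-normalized unit of the deposited files (mean ± SD, n = 3). Gbp4 rose from 0.922, 0.734 and 0.967 CPM to 828, 863 and 759 CPM and Gbp10 from 0.425, 0.226 and 0.662 CPM to 321, 379.8 and 443 CPM. Every treated library exceeded every Ctr library of these genes by more than 2 orders of magnitude.

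Igtp, an IRG protein of the regulatory branch, stood at 4.22, 5.03 and 4.8 CPM in Ctr and 3033, 4648 and 4264 CPM with both agents, a log2 fold change of 9.73 ± 0.27 (SE, adjusted p = 2.59e-10). Iigp1, an effector IRG, stood at 3.3, 2.88 and 2.46 CPM and 1960, 2063 and 3106 CPM, a log2 fold change of 9.70 ± 0.31 (SE, adjusted p = 8.89e-10). The groups were far apart in both genes, and per length Igtp reached 1539 ± 339 TPM and Iigp1 643 ± 123 TPM. Tgtp2 (log2 fold change 9.95 ± 0.26), Tgtp1 (log2 fold change 9.83 ± 0.26) and Irgm2 (log2 fold change 9.54 ± 0.26) changed as much. Close copies and overlapping exons limit these values. Tgtp1 and Tgtp2, Gbp6 and Gbp10, and Gm4951, Gm4841 and F830016B08Rik are near-identical groups. Gbp4, Gbp8 and Gbp9, Gbp10 and Gm43302, Igtp and Irgm2, Ifi47 and Olfr56, and Tgtp1 and Gm12185 share exon sequence. The counts of all these genes are thus uncertain between members. Outside the families, Batf2, a bZIP factor, rose from 0.0355, 0.0565 and 0.0678 CPM to 70.1, 60.8 and 46.5 CPM, although it shares exon sequence with Arl2 on the opposite strand. Serpina3f, a serine protease inhibitor, went from 0.177, 0.226 and 0.271 CPM to 192, 178 and 178 CPM, a log2 fold change of 9.58 ± 0.38 (SE, adjusted p = 5.3e-09).

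Some genes were at the counting floor in Ctr, with no library above 3 counts, and only a lower bound can be given for them. This held for 176 of the genes that rose. Olfr56 was at least 364-fold higher with both agents, with the exon overlap given above. Serping1, the inhibitor of complement C1, was at least 237-fold higher, and Tbx21, the T-box factor of type 1 immune cells, at least 188-fold. Tbx21 measured 26.3, 18.1 and 17 CPM in the 3 treated libraries against 0.0709, 0 and 0.017 CPM in Ctr. Apol9a, an interferon-induced apolipoprotein L gene, had 0 counts in all Ctr libraries and 9.1, 11.4 and 10.5 CPM with both agents, at least 94.8-fold higher.

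**Figure D2:**
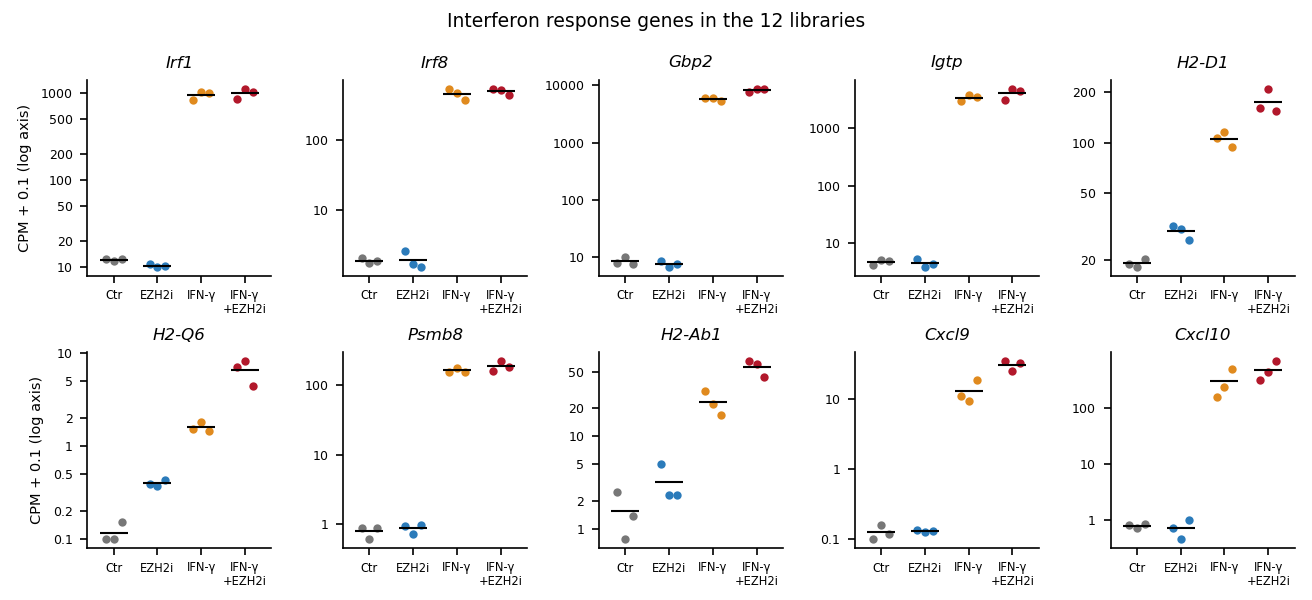
Levels of interferon-response genes in each library, in CPM on a log axis with 0.1 CPM added so that values of 0 can be drawn, for all 4 groups. In every gene shown the 3 IFN-γ with EZH2i libraries lie above the 3 Ctr libraries.

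Most tested genes of MHC class I presentation rose. Of 12 tested heavy-chain genes (16 listed) 11 rose, with a median log2 fold change of 3.63, and of 15 genes of peptide processing and loading 12 rose, with a median of 3.94. No gene of either list fell. Several of these genes are ones the study selected on these libraries, so that their direction is not independent evidence. H2-D1, a classical class I molecule on chr17:35262730-35267499, measured 18.7, 18.1 and 20.2 CPM in Ctr and 161, 209.5 and 154 CPM in IFN-γ with EZH2i, a log2 fold change of 3.20 ± 0.15 (SE, adjusted p = 2.82e-08). H2-K1, the other classical molecule, measured 22.3, 28.7 and 22.4 CPM and 218, 242 and 169 CPM, a log2 fold change of 3.10 ± 0.20 (SE, adjusted p = 4.79e-07). The groups did not overlap in either gene. H2-Q6 and H2-Q7 encode class Ib molecules. H2-Q6 reached 6.88, 8.05 and 4.32 CPM with both agents from floor level in Ctr, at least 59-fold higher, and H2-Q7 rose from 1.7, 2.15 and 1.29 CPM to 32.4, 33.8 and 20.4 CPM, a log2 fold change of 4.11 ± 0.31 (SE, adjusted p = 2.34e-06). The H2-Q genes are close copies of each other, so that reads could be split between them. H2-T23, which presents leader peptides to NK cell receptors, rose by a log2 fold change of 7.81 ± 0.30 and H2-Q4 by a log2 fold change of 5.53 ± 0.20.

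The machinery that feeds class I molecules moved with them. Tap1, the peptide transporter subunit on chr17:34187553-34197225, rose from 10.7, 10.6 and 8.23 CPM to 638, 818 and 659.8 CPM, a log2 fold change of 6.17 ± 0.26 (SE, adjusted p = 1.11e-08). Psmb8, a subunit of the immunoproteasome, rose from 0.78, 0.508 and 0.78 CPM to 163, 223 and 186 CPM, a log2 fold change of 8.05 ± 0.22 (SE, adjusted p = 2.32e-10), and its partner Psmb9 from 0.284, 0.282 and 0.458 CPM to 76.7, 97.5 and 74.1 CPM. Psmb9 overlaps Tap1 on the opposite strand. Nlrc5, the transactivator of class I genes, went from 2.06, 1.13 and 2.04 CPM to 713, 814 and 722 CPM, a log2 fold change of 8.70 ± 0.22 (SE, adjusted p = 2.32e-10). All 3 treated libraries of each gene were well above all Ctr libraries, and Nlrc5 shares exon sequence with 9330175E14Rik. B2m, the common light chain, rose by a log2 fold change of 3.82 ± 0.43 with a wide spread, 618, 315 and 331 CPM with both agents, and replicate 1 was the highest library. Tap2 (log2 fold change 5.47 ± 0.17), Psmb10 (log2 fold change 4.01 ± 0.16) and Tapbp (log2 fold change 3.94 ± 0.19) rose as well.

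MHC class II genes, which in the body mark professional antigen-presenting cells, included 7 that rose, from low levels in Ctr. Of 10 tested genes (14 listed) none fell, and the median log2 fold change was 6.03, or 5.49 with 3 genes at the floor in Ctr set to their bound. Ciita, the master transactivator of class II genes, stood at 0.886, 1.98 and 0.78 CPM in Ctr and 193, 234 and 216 CPM with both agents, a log2 fold change of 7.58 ± 0.32 (SE, adjusted p = 1.08e-08), with exon sequence shared with Dexi. H2-Ab1 rose from 2.38, 0.677 and 1.29 CPM to 64.8, 59.7 and 43.1 CPM, a log2 fold change of 5.24 ± 0.46 (SE, adjusted p = 8.32e-06). Its partner chain H2-Aa was at the floor in Ctr and at 15.8, 19.3 and 15.8 CPM with both agents, at least 156-fold higher. H2-Ab1 was already detected in every Ctr library and H2-Aa in none above 3 counts. H2-Eb1 went from 0.39, 0.113 and 0.237 CPM to 26.5, 39.8 and 22.1 CPM, a log2 fold change of 6.82 ± 0.41 (SE, adjusted p = 2.4e-07). Cd74, the invariant chain, was at least 63.6-fold higher, at 10.4, 6.38 and 3.98 CPM, and H2-DMb1, a peptide exchange factor, at least 53.8-fold. Per length, H2-Ab1 reached 43.3 ± 12.5 TPM, below the 80.3 ± 20.6 TPM of H2-D1. The 3 other tested class II genes did not pass the test.

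Of 16 tested chemokine genes (21 listed), 12 rose and none fell. The median log2 fold change was 4.28, or 2.54 with bounds for the 5 genes at floor level in Ctr. Cxcl10, Cxcl9 and Cxcl11 encode ligands of CXCR3, the receptor that guides activated T cells. Cxcl10 stood at 0.709, 0.621 and 0.729 CPM in Ctr and at 318, 428 and 680.4 CPM in IFN-γ with EZH2i, a log2 fold change of 9.41 ± 0.58 (SE, adjusted p = 3.26e-07), and shares exon sequence with Art3. Cxcl9 was at the floor in Ctr and at 34.1, 24.8 and 31.6 CPM with both agents, at least 277-fold higher. Cxcl11 had 0 counts in all Ctr libraries and 2.14, 3.4 and 2.63 CPM with both agents, at least 25-fold higher. The treated libraries were above Ctr in all 3 genes, and their level differed by about 2-fold between replicates for Cxcl10. Ccl2, which attracts monocytes, rose with a wider spread, from 1.03, 0.452 and 0.628 CPM to 64.5, 9.3 and 42.1 CPM, a log2 fold change of 5.75 ± 0.85 (SE, adjusted p = 0.000673), where replicate 2 was the lowest treated library. Cx3cl1, the ligand of the microglial receptor CX3CR1, rose by a log2 fold change of 2.63 ± 0.27.

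Genes of other arms of the interferon response rose too. Of 10 tested T-cell ligand and adhesion genes (14 listed) 6 rose and none fell (median log2 fold change 1.34), of 22 tested antiviral genes (23 listed) all 22 rose (median 5.55, or 4.87 with such bounds), of 12 cell death genes 10 rose (median 3.64) and of 10 tested complement genes (13 listed) 6 rose (median 1.89). Cd274, which encodes the checkpoint ligand PD-L1, went from 0.745, 0.508 and 0.56 CPM to 199.6, 185 and 234 CPM, a log2 fold change of 8.40 ± 0.24 (SE, adjusted p = 4.23e-10), and shares exon sequence with another annotated gene. Icam1, an adhesion molecule for leukocytes, went from 1.7, 0.226 and 0.696 CPM to 76.6, 102 and 79.5 CPM, a log2 fold change of 6.57 ± 0.42 (SE, adjusted p = 4.21e-07). Both genes separated the groups completely. Isg15, a ubiquitin-like modifier, rose by a log2 fold change of 7.72 ± 0.35 and Oasl2, a 2′-5′-oligoadenylate synthetase-like gene, by a log2 fold change of 7.84 ± 0.40. Mlkl, the executioner of necroptosis, rose from 0.284, 0.395 and 0.271 CPM to 42.2, 40.1 and 44.3 CPM, a log2 fold change of 7.11 ± 0.22 (SE, adjusted p = 7.72e-10). Gsdmd, the pore-forming protein of pyroptosis, rose by a log2 fold change of 5.91 ± 0.72, and Casp4, its activating caspase, was at least 30.9-fold higher. C4b, a complement component, went from 6.42, 3.1 and 3.9 CPM to 140.4, 132 and 126 CPM, a log2 fold change of 4.88 ± 0.28 (SE, adjusted p = 1.47e-07).

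The Polycomb side of the response begins with the complex itself. Of 12 tested PRC2 genes (13 listed), 1 rose and none fell, with a median log2 fold change of 0.02. That is near the share of all tested genes that rose, 8.81%. The target of the inhibitor, Ezh2, measured 43.4, 51.9 and 52.8 CPM in Ctr and 35.1, 44.2 and 35 CPM in IFN-γ with EZH2i, a log2 fold change of -0.37 that did not pass the test (adjusted p = 0.19). A catalytic inhibitor acts on the enzyme and not on its transcript, so that the Ezh2 level is no check of the labels. Aebp2, an accessory subunit, was the gene that rose, from 51.6, 44.1 and 46 CPM to 110.1, 83.6 and 67.3 CPM. Its log2 difference was 1.01 from EZH2i alone (edgeR adjusted p = 0.00618) and 0.16 from IFN-γ alone (adjusted p = 0.999). Without Ctr replicate 2 the Aebp2 call was lost (adjusted p = 0.0627). Among 7 CDK inhibitor genes 1 rose. That gene was Cdkn2a, which encodes p16INK4a and p19ARF and is a classical PRC2 target on chr4:89274471-89294653. Cdkn2a stood at 11.7, 11 and 7.87 CPM in Ctr, 26.3, 38.5 and 18.3 CPM with EZH2i, 9.01, 13 and 8.02 CPM with IFN-γ and 38.8, 39 and 22.3 CPM with both, a log2 fold change of 1.72 ± 0.31 (SE, adjusted p = 0.00286). The groups with the inhibitor did not overlap those without it.

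Several Hox genes, which pattern the body axis, rose to low levels. Of 39 listed Hox genes 18 were tested, 12 rose and none fell, with a median log2 fold change of 5.73, or 2.74 with the 10 genes at the floor in Ctr set to their bound. Those 10 passed the filter on low counts through other groups and could hardly fall, so the counts by direction partly follow from the filter. Without Ctr replicate 3 the count was 7, and in a fit of the 6 libraries alone it was 6. The Hox genes summed to 5.04, 3.33 and 4.53 CPM in Ctr and to 43.5, 24.1 and 13.7 CPM in IFN-γ with EZH2i. With EZH2i alone they summed to 43.3, 24.7 and 15.4 CPM and with IFN-γ alone to 6.67, 2.21 and 4.06 CPM. The sums thus fell into a low and a high range by the inhibitor, and in both groups that had it replicate 1 was highest and replicate 3 lowest. Hoxd8 went from 0.0355, 0.0565 and 0.0509 CPM to 9.06, 8.51 and 3.33 CPM, at least 64-fold higher. Hoxa7 went from 0.0709, 0 and 0.102 CPM to 4.27, 2.25 and 1.84 CPM, a log2 fold change of 5.21 ± 0.76 (SE, adjusted p = 0.000566). Hoxb13, a posterior Hox gene with 0 counts in all Ctr libraries, was at least 13.5-fold higher.

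Other families of developmental factors also held genes that rose, and the genes named below were at low levels in Ctr. Of 8 tested LIM homeobox genes (12 listed) 5 rose (median log2 fold change 3.23), of 11 tested T-box genes (17 listed) 7 rose (2.95), of 12 tested EBF, GATA and PAX genes (19 listed) 6 rose (2.98, or 2.36 with bounds), of 12 tested bHLH genes (24 listed) 8 rose (3.09, or 2.75) and of 13 tested Iroquois, DLX and sine oculis-related homeobox genes (18 listed) 4 rose (0.98). No gene of these lists fell, though members at the floor in Ctr could hardly do so. The LIM count was 2 without Ctr replicate 3, and the Iroquois, DLX and sine oculis-related count was 0 without Ctr replicate 3, 1 without Ctr replicate 2 and 2 without EZH2i replicate 2, IFN-γ replicate 2 or replicate 1 or 2 of the combined group. In Ctr the T-box list summed to 155 to 175 CPM and the bHLH list to 39.0 to 67.1 CPM. With both agents they summed to 207 to 239 CPM and 24.6 to 103 CPM, so that the T-box sums separated and the bHLH sums overlapped. T-box sums were also above Ctr with EZH2i alone (184 to 207 CPM) and with IFN-γ alone (193 to 205 CPM). Tbx21, among the T-box genes that rose, was higher than with EZH2i alone (log2 difference 7.08, edgeR adjusted p = 3.94e-06). Tbx15, a mesodermal T-box gene, stood at 0.106, 0.282 and 0.204 CPM in Ctr and 10.5, 12.2 and 5.34 CPM with both agents, a log2 fold change of 5.58 ± 0.56 (SE, adjusted p = 2.64e-05). Tbx18, known from sclerotome and epicardium, was at least 38.4-fold higher, at 7.35, 3.71 and 1.49 CPM. Tbx18 thus spread about 5-fold between the treated libraries and Tbx15 about 2-fold. Ebf3, a neuronal and mesodermal HLH factor, went from 0.567, 0.452 and 0.356 CPM to 14.7, 9.36 and 6.26 CPM, a log2 fold change of 4.48 ± 0.53 (SE, adjusted p = 0.000116). Twist1, a mesodermal bHLH gene, rose from 0.319, 0 and 0 CPM to 8.89, 6.56 and 3.48 CPM, a log2 fold change of 5.99 ± 0.97 (SE, adjusted p = 0.00126). Ctr replicate 1 alone contained Twist1 counts. Hand2, a bHLH gene of heart and limb, had 0 counts in all Ctr libraries and 14, 2.55 and 1.27 CPM with both agents, so that replicate 1 carried most of the signal. Tcf24 varied less, from 0.248, 0.169 and 0.119 CPM to 2.91, 3.13 and 1.74 CPM, a log2 fold change of 3.89 ± 0.38 (SE, adjusted p = 2.21e-05).

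The start regions of Cdkn2a and Ebf3 are shown because they are rich in CG, more so than the typical window of the developmental lists. Capitals mark CG dinucleotides, the windows are RefSeq windows as above, and neither holds a GAS or ISRE match.
Cdkn2a, chr4:89294570-89294869, minus strand, 45 CG: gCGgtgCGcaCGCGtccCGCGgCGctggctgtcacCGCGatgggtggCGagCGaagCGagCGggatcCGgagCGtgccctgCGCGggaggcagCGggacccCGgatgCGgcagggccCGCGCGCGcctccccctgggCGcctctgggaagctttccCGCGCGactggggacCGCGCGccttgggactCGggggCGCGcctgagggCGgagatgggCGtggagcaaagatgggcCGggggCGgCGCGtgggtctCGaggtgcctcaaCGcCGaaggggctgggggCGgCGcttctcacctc
Ebf3, chr7:137314396-137314695, minus strand, 46 CG: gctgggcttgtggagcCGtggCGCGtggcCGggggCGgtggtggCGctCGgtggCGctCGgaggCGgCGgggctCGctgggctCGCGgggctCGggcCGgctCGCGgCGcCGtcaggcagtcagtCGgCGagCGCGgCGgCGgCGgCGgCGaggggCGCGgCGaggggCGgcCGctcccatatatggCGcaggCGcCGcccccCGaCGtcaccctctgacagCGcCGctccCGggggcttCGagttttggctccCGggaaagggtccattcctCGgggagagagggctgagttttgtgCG
The Gbp2 window printed above holds 2 CG and the Irf1 window 32. The median was 20 CG over the windows of all tested genes, 2 over the GBP family, 3 over the IRG family, 30 over the PRC2 subunits, 10 over the T-box genes, 13.5 over the Hox genes, 17 over the bHLH genes, 19 over the LIM genes, 20 over the EBF, GATA and PAX genes and 22.5 over the Iroquois, DLX and sine oculis-related genes. The Hoxd8 window holds 6.

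The genes that fell included some markers of OPCs. Of 17 OPC markers 7 fell and none rose, with a median log2 fold change of -0.41. In bulk libraries, fewer cells of a type and less RNA per cell cannot be told apart. Pdgfra, the receptor for the PDGF in the medium, stood at 1294, 1305 and 1917 CPM in Ctr and 491, 480.3 and 616 CPM in IFN-γ with EZH2i, a log2 fold change of -1.51 ± 0.24 (SE, adjusted p = 0.00124). Cspg4, the NG2 proteoglycan, went from 769, 783 and 824 CPM to 460.2, 324 and 323 CPM, a log2 fold change of -1.10 ± 0.20 (SE, adjusted p = 0.00268). Gpr17, a receptor of OPCs committed to differentiate, went from 2061, 1643 and 1158 CPM to 643, 454 and 467 CPM, a log2 fold change of -1.64 ± 0.30 (SE, adjusted p = 0.00309). All treated libraries were below all Ctr libraries in the 3 genes, and Gpr17 shares exon sequence with Lims2. Xylt1, which starts glycosaminoglycan chains on proteoglycans, fell by 1.99 ± 0.22 on the log2 scale. Neu4 and Cacng4 also fell, to 31.3, 35.2 and 45.9 CPM and 172, 88 and 82.9 CPM. Other OPC markers did not pass the test: Ptprz1 had a log2 fold change of -0.30, Vcan of -0.70 and Lhfpl3 of 0.14.

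Among 20 transcription factors of the oligodendrocyte lineage 6 fell and 4 rose, with a median log2 fold change of -0.54. Without Ctr replicate 3, 5 fell and 2 rose. Olig2, required to specify the lineage, stood at 400, 674 and 412 CPM in Ctr and 269, 334 and 242 CPM with both agents (log2 fold change -0.81, adjusted p = 0.031). Without Ctr replicate 2 it was -0.55 (adjusted p = 0.112), and the Olig2 call was also lost without IFN-γ with EZH2i replicate 1 (0.0623) or 3 (0.0992) and in a fit of the 6 libraries alone (0.0625). Sox6, which holds OPCs back from differentiating, fell from 436, 412 and 525 CPM to 242, 222 and 253 CPM, a log2 fold change of -0.94 ± 0.13 (SE, adjusted p = 0.000405). Sox8, which shares exon sequence with 2810468N07Rik, fell from 372, 387 and 232 CPM to 144, 117 and 90.9 CPM. Sox10, whose regulatory sequence drives Cre in these mice, ranged widely, from 624, 453 and 301 CPM in Ctr to 526, 237 and 209 CPM with both agents, and did not pass the test (adjusted p = 0.61). The groups did not overlap for Olig2, Sox6 and Sox8 and did for Sox10. Sox11, a factor of immature neural cells, rose from 148, 146 and 132 CPM to 448, 393 and 433 CPM, a log2 fold change of 1.58 ± 0.11 (SE, adjusted p = 1.49e-06), and the differentiation inhibitor Id4 rose by a log2 fold change of 0.96 ± 0.17.

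Few myelin and differentiation genes passed the test, and those that did fell. All 19 tested genes of the list (20 listed) had a negative log2 fold change, with a median of -0.75, and 4 passed the test. The count was 2 without Ctr replicate 2 or without replicate 2 or 3 of the combined group, and 8 without its replicate 1. Ugt8a, which makes the myelin lipid galactocerebroside, fell from 307, 223 and 286 CPM to 121, 114 and 139.5 CPM, a log2 fold change of -1.12 ± 0.14 (SE, adjusted p = 0.00013). Enpp6, a marker of newly forming oligodendrocytes, stood at 163, 126 and 107 CPM in Ctr, 76, 77 and 59.6 CPM with EZH2i, 132, 113 and 79 CPM with IFN-γ and 51.8, 46.2 and 56.7 CPM with both, a log2 fold change of -1.35 ± 0.20 (SE, adjusted p = 0.000784). Mbp, myelin basic protein, stood at 814, 957 and 663 CPM in Ctr and 571, 329.6 and 257 CPM with both, a log2 fold change of -1.07 ± 0.26 (SE, adjusted p = 0.0179). The Mbp call was lost without Ctr replicate 2 (adjusted p = 0.0746) and without IFN-γ with EZH2i replicate 2 (0.0829) or 3 (0.0567), and in a fit of the 6 libraries alone (0.0541). The Enpp6 values with both agents were below every value of the other 3 groups.

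The largest falls were not confined to lineage genes. Bmp4, a ligand that turns OPCs towards astrocytes, went from 52.3, 32 and 20.7 CPM to 4.83, 4.29 and 3.5 CPM, a log2 fold change of -3.06 ± 0.43 (SE, adjusted p = 0.000424). Itga4, an integrin subunit, went from 16.8, 14.3 and 13.4 CPM to 2.27, 2.34 and 2.81 CPM, a log2 fold change of -2.58 ± 0.21 (SE, adjusted p = 5.17e-06). Mycl, a MYC family factor, went from 73.4, 50.7 and 37.1 CPM to 12.9, 7.9 and 6.76 CPM, a log2 fold change of -2.55 ± 0.41 (SE, adjusted p = 0.00127). In Bmp4 and Mycl the Ctr libraries differed widely among themselves. That all were above the treated ones was a condition for choosing the largest falls. Pnlip fell by 2.05 ± 0.20 on the log2 scale, Col19a1 by 2.08 ± 0.29 on the log2 scale and Pstpip2 to 3.59, 3.01 and 3.33 CPM from 12.2, 13.1 and 14.3 CPM.

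**Figure D3:**
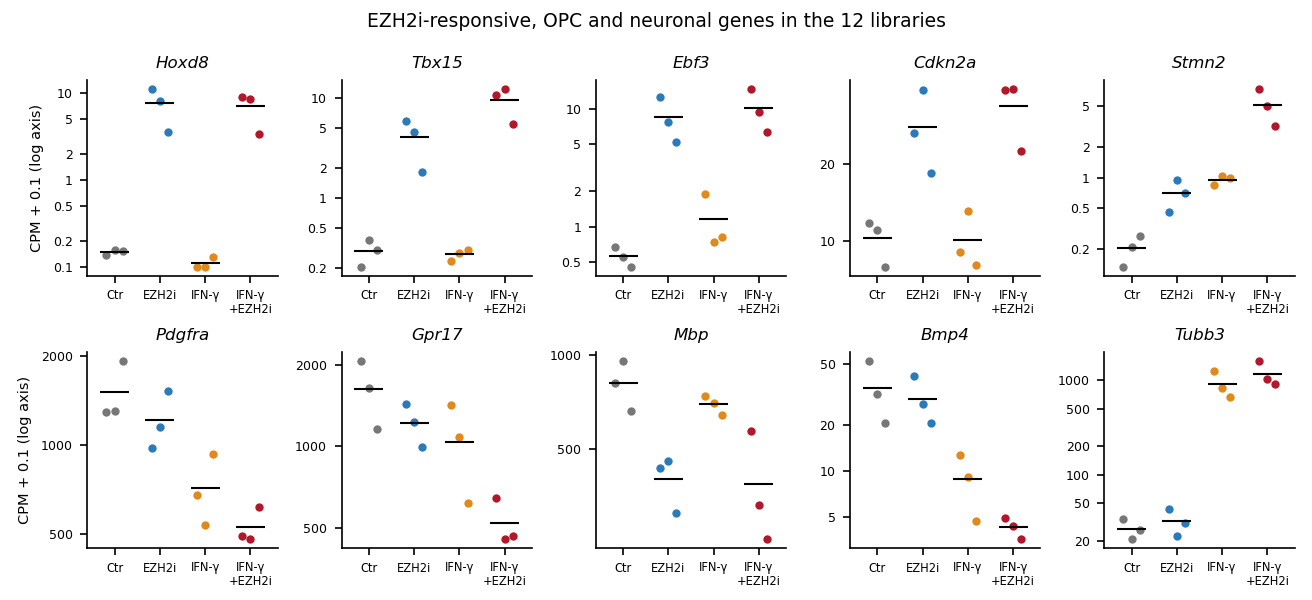
Levels of developmental regulators, Cdkn2a and OPC, myelin and neuronal genes in each library, in CPM on a log axis with 0.1 CPM added, for all 4 groups. Hoxd8, Tbx15 and Cdkn2a are high in both groups with EZH2i. Pdgfra is lowest in IFN-γ with EZH2i, but its difference from IFN-γ alone did not pass the edgeR test (adjusted p = 0.876, 0.0579 with the replicate block).

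Signalling, cell cycle and stress genes were mixed. Of 27 tested WNT and BMP genes (31 listed) 11 rose and 4 fell, and 7 and 3 without Ctr replicate 1 or 2 or without IFN-γ with EZH2i replicate 2. Fst, which encodes the activin and BMP antagonist follistatin, rose from 0.0355, 0.226 and 0.0339 CPM to 42.8, 59.6 and 32.3 CPM, a log2 fold change of 9.27 ± 0.70 (SE, adjusted p = 2.13e-06). Bmp2 rose (log2 fold change 3.93 ± 0.79) while Bmp7 fell from 129.6, 119.5 and 103 CPM to 54.7, 41.2 and 36.7 CPM, a log2 fold change of -1.41 ± 0.20 (SE, adjusted p = 0.000573), and Wnt7a, a WNT ligand of OPCs, fell by 1.55 ± 0.21 on the log2 scale. The family thus contained ligands of opposite direction. Shh, the hedgehog ligand, named after its values were seen, was higher in each group in turn, with 0.425, 0.339 and 0.424 CPM in Ctr, 1.82, 1.37 and 1.58 CPM with EZH2i, 6.4, 6.05 and 5.97 CPM with IFN-γ and 15.3, 14.9 and 19.8 CPM with both, a log2 fold change of 5.36 ± 0.22 (SE, adjusted p = 9.19e-09). No value of one group overlapped that of another. Of 16 p53 target genes 7 rose and none fell, with a median log2 fold change of 0.70. Ccng1, a cyclin induced by p53, rose from 329, 325 and 285 CPM to 478, 563 and 489 CPM, a log2 fold change of 0.70 ± 0.12 (SE, adjusted p = 0.00166), and Pmaip1, the BH3-only protein NOXA, from 9.89, 3.56 and 7.72 CPM to 19.4, 16.6 and 20.3 CPM, a log2 fold change of 1.40 ± 0.31 (SE, adjusted p = 0.0108). Cdkn1a, the p53 target that arrests the cell cycle, had 88.4, 58.7 and 56.2 CPM and 163, 117 and 65.3 CPM and did not pass the test (adjusted p = 0.207).

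Of 25 cell cycle genes 1, E2f1, fell (11.6, 14.3 and 13.9 CPM in Ctr, 9.23, 8.54 and 9.39 CPM with both agents, adjusted p = 0.0333) and none rose, with a median log2 fold change of -0.38. The E2f1 call was lost without Ctr replicate 2 (adjusted p = 0.102) or 3 (0.107) and without IFN-γ with EZH2i replicate 1 (0.0519), 2 (0.128) or 3 (0.0638), and also in a fit of the 6 libraries alone (0.0893), with no filter on low counts (0.111) and with length-scaled TPM (0.0622). The count of cell cycle genes that fell was 3 without Ctr replicate 1 and 4 without IFN-γ replicate 3 or with DESeq2. Of 23 cholesterol synthesis genes 4 rose and none fell (median 0.19). The calls of Cyp51 and Ebp were lost under 16 and 12 of 21 alternatives, and the count was 2 without any 1 of the 3 Ctr libraries, replicate 2 or 3 of the combined group, EZH2i replicate 2 or IFN-γ replicate 2. Hsd17b7 and Msmo1 kept the call under all 21, and Msmo1 went from 172, 163 and 168 CPM to 237, 258 and 260.4 CPM, a log2 fold change of 0.58 ± 0.10 (SE, adjusted p = 0.00155). Of 17 collagen genes 3 rose and none fell (median 0.49). Col12a1, a fibril-associated collagen, rose from 8.83, 13.5 and 11.5 CPM to 43.9, 49.7 and 51.6 CPM, a log2 fold change of 2.10 ± 0.20 (SE, adjusted p = 1.68e-05). Of 17 ERK feedback genes Fosl2 rose, Etv4 fell and the others did not pass the test, with a median of -0.20. In that list 2 rose without Ctr replicate 1, and 4 fell without IFN-γ with EZH2i replicate 1. Few members of these 4 lists passed the test, and over all tested genes 8.81% rose and 3.52% fell.

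Marker lists of other cell types were read in the same libraries. Of 15 microglia and macrophage markers 3 were tested, none passed the test, and the list summed to 7.20 to 10.5 CPM in Ctr and 7.78 to 10.8 CPM in IFN-γ with EZH2i. Of 10 astrocyte markers none passed (1 rose without Ctr replicate 3), with sums of 1689 to 3025 CPM and 2096 to 3658 CPM, in which Gfap ranged widely (log2 fold change 1.62, adjusted p = 0.102). Of 2 tested T, B and NK cell markers (10 listed) none passed. The OPC markers fixed for the check of the label summed to 9667 to 9794 CPM in Ctr and 5401 to 6558 CPM with both agents, and 5 of 10 fell, or 3 without Ctr replicate 2 or without replicate 1 or 3 of the combined group. Of 9 tested mature oligodendrocyte markers (10 listed) Ermn fell, a call that was lost without any 1 of 8 libraries, of 5 tested endothelial markers (9 listed) Ly6c1 rose, and of 8 tested pericyte and leptomeningeal markers (11 listed) Kcnj8 and Lum rose. OPC marker genes were thus at high levels in both groups and astrocyte marker genes were present in both. The part of astrocytes in the results was not tested.

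Neuronal markers were read in the same way. Of 12 genes 5 rose and none fell, and the list summed to 139 to 238 CPM in Ctr and 1149 to 1904 CPM in IFN-γ with EZH2i. Most of that sum was Tubb3, a neuronal β-tubulin, with 33.6, 20.7 and 25.9 CPM in Ctr, 42.8, 22.4 and 30.6 CPM with EZH2i, 1256, 822 and 669 CPM with IFN-γ and 1592, 1021 and 919.8 CPM with both, a log2 fold change of 5.46 ± 0.37 (SE, adjusted p = 7.3e-07). Stmn2, a microtubule regulator of axons, measured 0.0355, 0.113 and 0.17 CPM in Ctr, 0.357, 0.849 and 0.607 CPM with EZH2i, 0.737, 0.932 and 0.895 CPM with IFN-γ and 7.18, 4.83 and 3.08 CPM with both, a log2 fold change of 5.39 ± 0.52 (SE, adjusted p = 1.98e-05). Tubb3 was high in both groups with IFN-γ, whereas Stmn2 was higher with both agents than in any other library. Syt1 rose by a log2 fold change of 2.99 ± 0.30. The other 2 calls were weaker: Nefl lost its call under 12 of 21 alternatives and Snap25 under 4, and the count was 3 without Ctr replicate 2 or 3 or without IFN-γ with EZH2i replicate 1. Other defining neuronal genes did not pass the test, among them Rbfox3 (log2 fold change 0.75), Dcx (-0.07) and Gad1 (0.15). The part of neurons in the results was not tested.

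**Figure D4:**
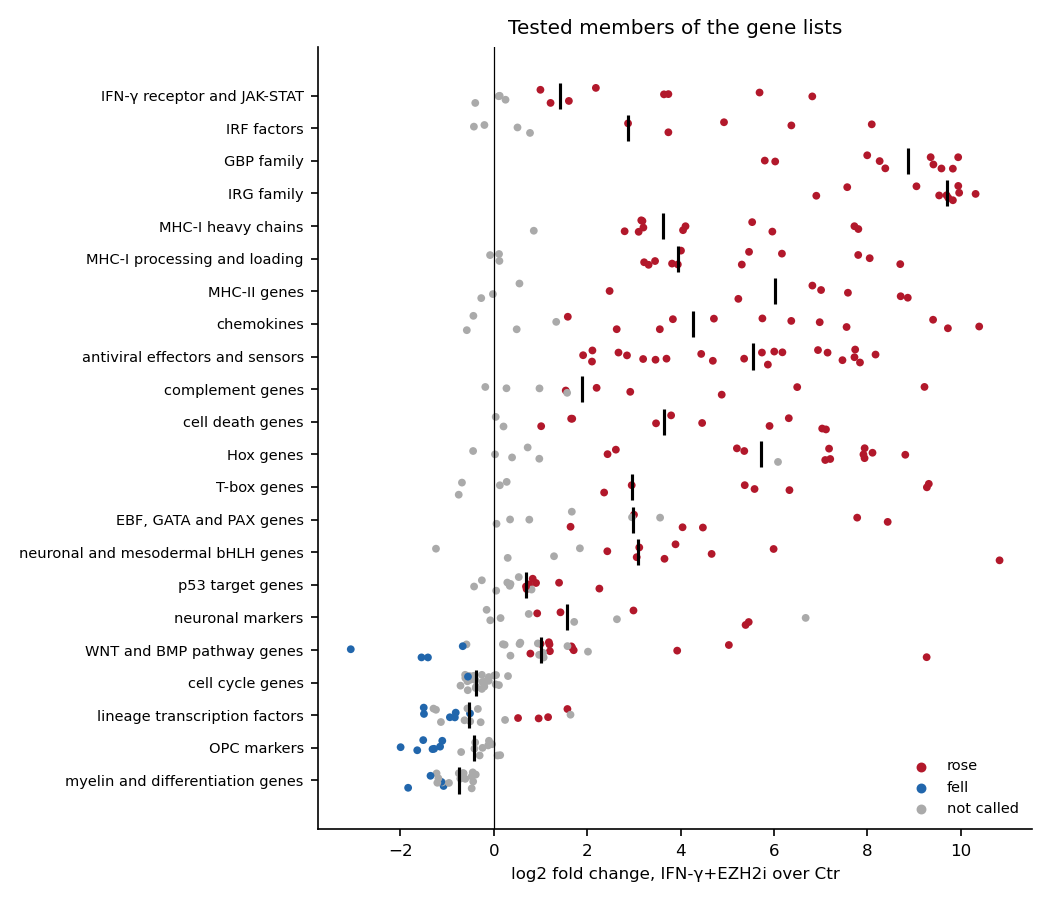
Fitted log2 fold changes in IFN-γ with EZH2i versus Ctr for the tested genes of each list, with called genes marked and the list median drawn. The GBP, IRG and antiviral lists lie wholly above 0, as do the class I heavy-chain, cell death and EBF, GATA and PAX lists. The myelin list, with a median of -0.75, lies wholly below 0.

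The combined treatment was then set beside each agent alone, in the same fit. IFN-γ with EZH2i compared with EZH2i alone gave 1120 genes higher (5.9%) and 413 lower (2.17%), and compared with IFN-γ alone 66 higher (0.347%) and 1 lower (0.00526%), Pstpip2. Replicate numbers paired the libraries in these comparisons, and with the replicate as a block the counts were 2084 and 1577 against EZH2i alone and 591 and 157 against IFN-γ alone. Against Ctr, IFN-γ alone gave 1264 genes higher (6.65%) and 399 lower (2.1%) in edgeR. EZH2i alone gave 77 higher (0.405%) and 0 lower, with 1338 genes in both directions at an unadjusted p under 0.05. For EZH2i alone DESeq2 called 285 higher and 12 lower, and edgeR with the replicate block 657 and 114. For IFN-γ alone the blocked counts were 2360 and 1672. These comparisons share libraries with the combined one, so that only their values are placed side by side. For Gbp2 the log2 fold change against Ctr was 9.41 with IFN-γ, -0.14 with EZH2i and 9.94 with both. For Tbx15 it was -0.10 with IFN-γ, 4.36 with EZH2i and 5.58 with both. For Pdgfra it was -1.07 with IFN-γ, -0.31 with EZH2i and -1.51 with both. In the fit without the block, Gbp2 and Pdgfra thus passed the test with IFN-γ and not with EZH2i, and Tbx15 with EZH2i and not with IFN-γ. For Enpp6 the values were -0.29, -0.90 and -1.35. In that fit the call passed only with both agents, which does not show a difference between them.

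**Figure D5:**
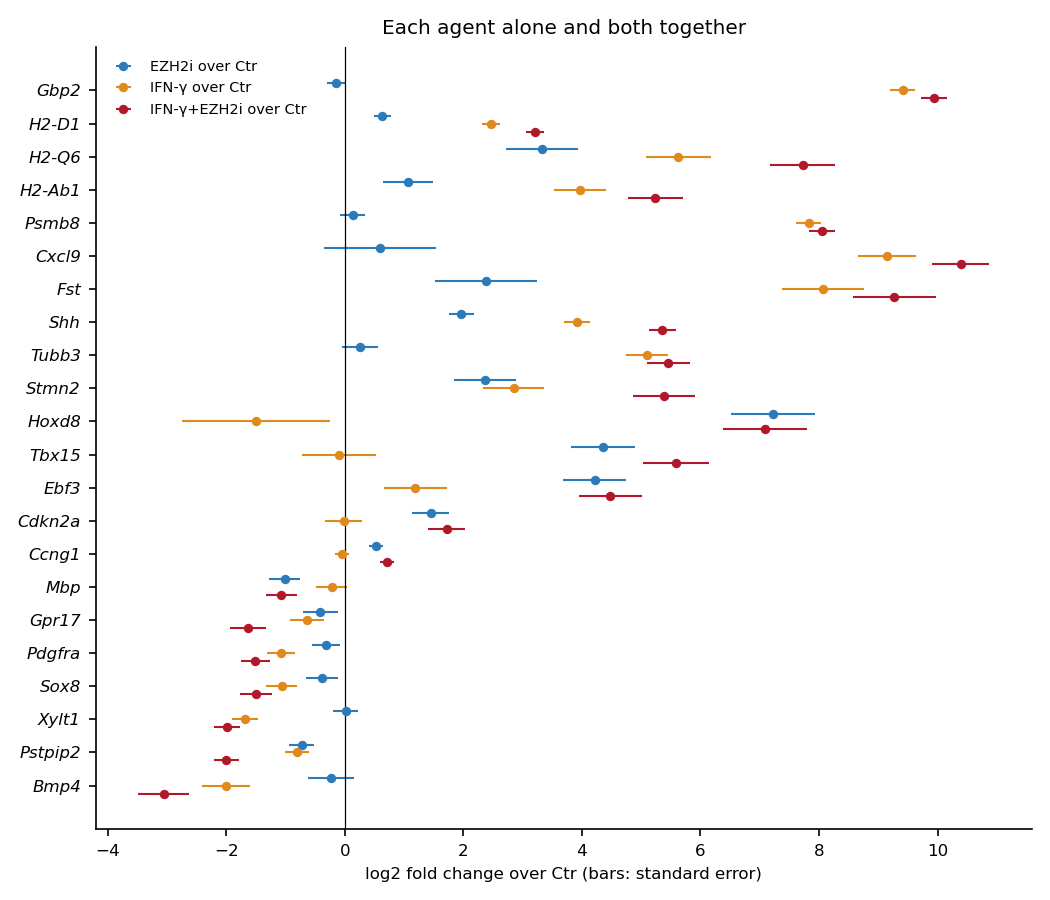
Fitted log2 fold changes against the same Ctr libraries with EZH2i, with IFN-γ and with both agents, for the genes named, with bars of 1 SE. Gbp2 and Psmb8 sit near 0 with EZH2i and Tbx15 and Cdkn2a near 0 with IFN-γ, and the fitted values of H2-Q6, Cxcl9 and Hoxd8, at the floor in Ctr, depend on the prior count.

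The genes higher with both agents than with IFN-γ alone included developmental regulators, Cdkn2a and a class I gene. Tcf24 was higher by 5.17 ± 0.41 (log2, SE, adjusted p = 0.000643), Tbx15 by 5.69 ± 0.55 (log2, SE, adjusted p = 0.00171), and Cdkn2a by 1.74 ± 0.31 (log2, SE, adjusted p = 0.0401). H2-Q6 measured 0.286, 0.274 and 0.334 CPM with EZH2i, 1.41, 1.73 and 1.36 CPM with IFN-γ and 6.88, 8.05 and 4.32 CPM with both, a difference from IFN-γ alone of 2.10 ± 0.35 (log2, SE, adjusted p = 0.0347). Every library with both agents was above every IFN-γ library in H2-Q6, which adds no support to a call made on the same libraries. Stmn2 (log2 difference 2.54, adjusted p = 0.0321) and Shh (1.44, adjusted p = 0.00654) were also among the 66, as was Ccng1 (0.76, adjusted p = 0.0249). These calls rest on few libraries: without 1 library the adjusted p reached 0.191 for Cdkn2a and 0.183 for H2-Q6 (IFN-γ with EZH2i replicate 2), 0.148 for Stmn2 and 0.0538 for Shh (IFN-γ replicate 2), and 0.141 for Ccng1 (either of these). Of 16 named genes called in this comparison 3 kept the call under every alternative.

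Some antigen presentation and chemokine genes did not pass the test against IFN-γ alone as fitted and passed it with the replicate block. The block was fitted to all 12 libraries, so Ctr libraries were paired by number in it too. Of 12 tested class I heavy chains 1 was called, 5 with the block and 5 with DESeq2. Of 10 class II genes the counts were 0, 5 and 2, of 16 chemokines 0, 4 and 2, and of 15 genes of class I processing and loading 0 in all 3 fits. Over all tested genes the higher calls numbered 66 of 18995 as fitted, 591 of 18995 with the block and 240 of 23298 with DESeq2. H2-D1 measured 106, 115 and 93.6 CPM with IFN-γ and 161, 209.5 and 154 CPM with both, a log2 difference of 0.74 (adjusted p = 0.0548, 0.00249 with the block, 0.000892 with DESeq2). H2-Ab1 measured 30.6, 22.3 and 16.9 CPM and 64.8, 59.7 and 43.1 CPM, a log2 difference of 1.26 (adjusted p = 0.32, 0.00166 with the block, 0.0873 with DESeq2). Cxcl9 measured 10.7, 9.27 and 18.1 CPM and 34.1, 24.8 and 31.6 CPM, a log2 difference of 1.25 (adjusted p = 0.0865, 0.00106 with the block, 0.00364 with DESeq2). In these 3 genes the lowest library with both agents exceeded the highest with IFN-γ alone. The study names all 3 from the same libraries, so this separation adds no support to the calls. The share of all tested genes without overlap in this comparison was not computed. The same change of call held for H2-K1 (0.78, adjusted p = 0.147, 0.001 with the block), H2-Q7 (1.16, 0.138 and 0.000655), H2-Aa (1.09, 0.18 and 0.00394), H2-Eb1 (1.09, 0.233 and 0.00316), Cxcl11 (1.57, 0.167 and 0.0212) and Gbp2 (0.53, 0.26 and 0.0274). No call was made with the block for Tap1 (log2 difference 0.19, adjusted p = 0.502 with the block), Psmb8 (0.22, 0.338), B2m (0.38, 0.416), Nlrc5 (-0.01, 0.98), Ciita (0.34, 0.316), H2-T23 (0.35, 0.298) or Ccl2 (0.50, 0.549). In the other direction, Gpr17 had 1422, 1079 and 619 CPM with IFN-γ and 643, 454 and 467 CPM with both (adjusted p = 0.319, 0.00295 with the block), with the highest library with both agents above the lowest with IFN-γ. The medians over lists against IFN-γ alone were 0.76 for class I heavy chains, 0.84 for class II genes, 0.06 for the GBP family and -0.06 for the antiviral genes.

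The interaction asked whether the log2 change with both agents departed from the sum of the changes with each. No gene passed the test in edgeR in either direction, 127 of 18995 had an unadjusted p under 0.05, and DESeq2 called 0 genes with 218 at an unadjusted p under 0.05. Cacng5, a transmembrane AMPA receptor regulatory protein gene, had 8.37, 7.4 and 8.29 CPM in Ctr, 16.5, 15 and 16.1 CPM with EZH2i, 22.3, 18.9 and 21.1 CPM with IFN-γ and 25.6, 22.7 and 20.4 CPM with both, an interaction of -0.84 on the log2 scale (unadjusted p = 0.000773, adjusted p = 1). Gbp2 had an interaction of 0.67 (unadjusted p = 0.0075, adjusted p = 1) and H2-Ab1 of 0.20 ± 0.57 (SE). For H2-D1 it was 0.10 ± 0.20 and for Tap1, which measured 23.6, 25.8 and 13.7 CPM with EZH2i alone, -0.91 ± 0.30. No departure from additivity passed the test for these genes, which does not show that the changes added up.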

How the data were processed

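The authors prepared stranded total RNA libraries, aligned with STAR and quantified transcripts with Salmon 0.8.2 on GRCm38, according to the submitters' processing notes. The deposited files give, per transcript and library, an estimated count and a TPM value, and the strand setting was not given in the sources used here. The estimated counts were summed per gene through the GENCODE annotation (141862 of 141862 transcripts matched, 55536 genes) and rounded, and the deposited TPM values were summed for comparisons between genes. Totals ran from 17403896 to 66546017 per library, which sets the precision of low genes, and bounds cover counting error only.

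edgeR 4.0.16 (R 4.3.3) fitted all 12 libraries by group, without covariates (TMM, filterByExpr, quasi-likelihood test, Benjamini-Hochberg adjusted p under 0.05). The SE is the absolute log2 fold change divided by the square root of F. A group at the floor has no library above 3 counts, and bounds divide the mean CPM by the mean CPM of 3 counts per Ctr library. In every list, tested genes at the floor in Ctr passed the filter through other groups and could rise but hardly fall. The members and the 37 gene lists were chosen with earlier results of these data known. Named genes were the 15 largest called changes in each direction, the 5 largest floor bounds and up to 4 called members per list. Genes the study names and those with the 5 smallest interaction p-values per direction were added. The 15 were picked among genes with a mean of at least 1 CPM, no overlap of the groups and a lower group above the floor. Their separation was thus fixed by the choice. Further list members and Shh were named after their values were seen. Replicate numbers were taken to pair IFN-γ with EZH2i with IFN-γ (correlations of same-numbered deviations 0.759, 0.657 and 0.770) and with EZH2i (0.650, 0.670 and 0.700). With Ctr the match was partial, and the main fit took no pairing. The replicate block was fitted to all 12 libraries, so it paired Ctr by number as well, also where the comparison left Ctr out. Sequences came from RefSeq. The fit was tested on simulated data with the same spread setting for every gene and no replicate effect. That test does not cover the replicate differences of these libraries. Alternatives included DESeq2 1.42.0, other filters and scalings, a replicate block, length-scaled TPM and leaving out each library. Some genes are not reported here.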

Additional observations from a re-analysis of the deposited data

How the results depend on the processing

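The count of genes higher in IFN-γ with EZH2i than in Ctr (1673) was 3099 with the replicate block and 1248 to 1691 with 1 library left out. The count lower (669) was 437 in a fit of the 6 libraries alone, 2432 with the replicate block and 268 with an absolute log2 fold change above 1. With 1 library left out it ran from 316 (without IFN-γ with EZH2i replicate 2) to 900 (without IFN-γ with EZH2i replicate 1), with 384 without Ctr replicate 2, 443 without Ctr replicate 3 and 404 without IFN-γ with EZH2i replicate 3. Replicate numbers paired Ctr with the combined libraries only in part by the correlation of deviations (0.539, -0.00483 and 0.607 for numbers 1 to 3). Numbers 1 and 3 matched best with their own number, whereas Ctr replicate 2 correlated best with replicate 1 of the other group (0.152). The blocked counts of this comparison are therefore given here only.

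Against IFN-γ alone the higher genes (66) numbered 240 with DESeq2, 591 with the replicate block, 30 with length-scaled TPM and 10 (without IFN-γ replicate 2) to 63 with 1 library left out. Without Ctr replicate 1, 2 or 3 it was 37, 38 or 43, without EZH2i replicate 1 or 2 it was 42 or 29, without IFN-γ replicate 1 or 3 it was 16 or 18, and without replicate 1 or 2 of the combined group it was 27 or 20. The lower genes (1) numbered 19 with DESeq2, 2 with no filter, 157 with the block, 0 with length-scaled TPM (1083 genes in both directions at an unadjusted p under 0.05, edgeR) and 0 to 2 with 1 library left out. Against EZH2i alone the higher genes (1120) numbered 2084 with the block and 851 to 1132 with 1 library left out. The lower genes (413) numbered 672 with DESeq2, 1577 with the block, 175 with an absolute log2 fold change above 1 and 194 (without IFN-γ with EZH2i replicate 2) to 452 with 1 library left out, with 237 and 227 without EZH2i replicate 1 and 2 and 242 without IFN-γ with EZH2i replicate 3. The interaction called 0 genes under every alternative (127 at an unadjusted p under 0.05 in edgeR, 218 in DESeq2, 545 with the block). The causes were not tested.

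Of 131 named genes called against Ctr, 110 kept the call under every alternative and none changed direction. Ezh2 passed the test with the block (adjusted p = 0.0131) and with length-scaled TPM (0.0346), and Sox10 (0.0134) and Cdkn1a (0.00874) with the block. Depth limits genes under about 1 CPM, where Ctr replicate 2 is shallowest, and 3 libraries a group limit the calls.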
